A study of Homo sapiens
Mus musculus with 3 samples.

Results

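The genes described here are 10 mouse genes of the major histocompatibility complex (MHC) pathways for antigen presentation, chosen by their Ensembl identifiers among 27998 mouse genes (60736 genes of both species) in the count tables. For class I they were H2-K1 (ENSMUSG00000061232) and H2-D1 (ENSMUSG00000073411), B2m (ENSMUSG00000060802), Tap1 (ENSMUSG00000037321), Psmb8 (ENSMUSG00000024338) and Psmb9 (ENSMUSG00000096727). For class II they were Cd74 (ENSMUSG00000024610), H2-Aa (ENSMUSG00000036594), H2-Ab1 (ENSMUSG00000073421) and H2-Eb1 (ENSMUSG00000060586). The rule that picked their rows used identifiers and no measured value, although the genes were proposed with earlier results of these data known. All 10 genes had a row in each table of reads, and 8 had a row in the table of unique molecular identifiers (UMIs), which lists no gene without a UMI.

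MHC class I molecules are found on most nucleated cells and show peptides from the cytosol to CD8+ T cells. A heavy chain, such as those encoded by H2-K1 and H2-D1, pairs with the light chain β2-microglobulin (B2m), and peptides cut by the proteasome, including the immunoproteasome subunits Psmb8 and Psmb9, enter the endoplasmic reticulum through a transporter of which Tap1 is a subunit. MHC class II molecules are made mainly by B cells and other professional antigen-presenting cells, where the invariant chain Cd74 escorts the α and β chains (H2-Aa and H2-Ab1 of I-A, H2-Eb1 of I-E) to the endosome for CD4+ T cells to read. Mouse T cells as a rule make class I and little class II.

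Single cells had been captured with the ICELL8 cx, a chip system in which cells are dispensed into nanowells and the transcripts of each nanowell receive a known barcode of 11 bases. Each library was made from a mixture of 4 lymphocyte lines in equal parts, with no treatment named, the human T-cell lines Jurkat and TALL-104, the mouse T-cell line EL4 and the mouse B-cell hybridoma line IVA12. The 3'DE group (official 3' differential expression protocol) had 2 libraries, and the 3'DE-UMI group (barcoding primers digested before cDNA amplification, so that UMIs can be counted) had 1 library. Per the study's sample description, the 3'DE-UMI library shared its cell mixture with 3'DE library 2, while 3'DE library 1 came from another. The labels do not say that the libraries came from separate cultures, so p-values measured only the spread between these libraries, which may be technical.

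A well was kept with at least 1000 reads and 200 genes and was called mixed when the minor species held at least 10% of its reads. In the order 3'DE library 1, 3'DE library 2, 3'DE-UMI library, this left 922, 773 and 700 mouse wells beside 533, 484 and 557 human wells. Of the barcodes of kept wells, 387 to 481 were shared between any pair of libraries. Mouse wells fell into 2 clusters in a clustering from which the 10 genes had been left out, and the same assignment was found at resolutions from 0.05 to 0.3. The tables carry no gene symbols, and no table of mouse symbols was used here, so the clusters could not be checked against T-cell or B-cell markers and are not named after EL4 or IVA12. Mouse cluster 1 held 473, 498 and 470 wells with medians of 28442 to 36855 mouse reads, and mouse cluster 2 held 449, 275 and 230 wells with medians of 20268 to 33590.5. Wells in which the other cluster's 50 leading genes made up at least 10% of such reads numbered 17, 9 and 15 in cluster 1 and 8, 24 and 4 in cluster 2. Values are given below in the same order, as reads per 1000000 mouse reads of the summed wells (CPM), and a share of wells has an exact 95% binomial interval that covers counting error only.

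The first comparison asked how the mouse clusters differed, with the library as the unit of replication. All 6 class I pathway genes were higher in cluster 1 in each of the 3 libraries and in the fit, by 2.49 to 3.23 on the log2 scale. The class II genes were at 19.5 CPM or less in both clusters, with H2-Eb1 higher in cluster 1 and Cd74 higher in cluster 2. In the edgeR quasi-likelihood fit over 12087 mouse genes, 39.1% of the genes were called at an adjusted p under 0.05 (19.8% higher in cluster 1 and 19.3% lower), and 8 of the 10 genes passed the filter on low counts. Of these 8, 7 were called higher and 1 lower in cluster 1. The median difference of the 6 class I genes was 2.86, beside -0.04 over all genes tested. Cd74 had enough reads to be tested only through cluster 2, where it was higher, so its call adds nothing to a count over the genes.

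**Figure D1:**
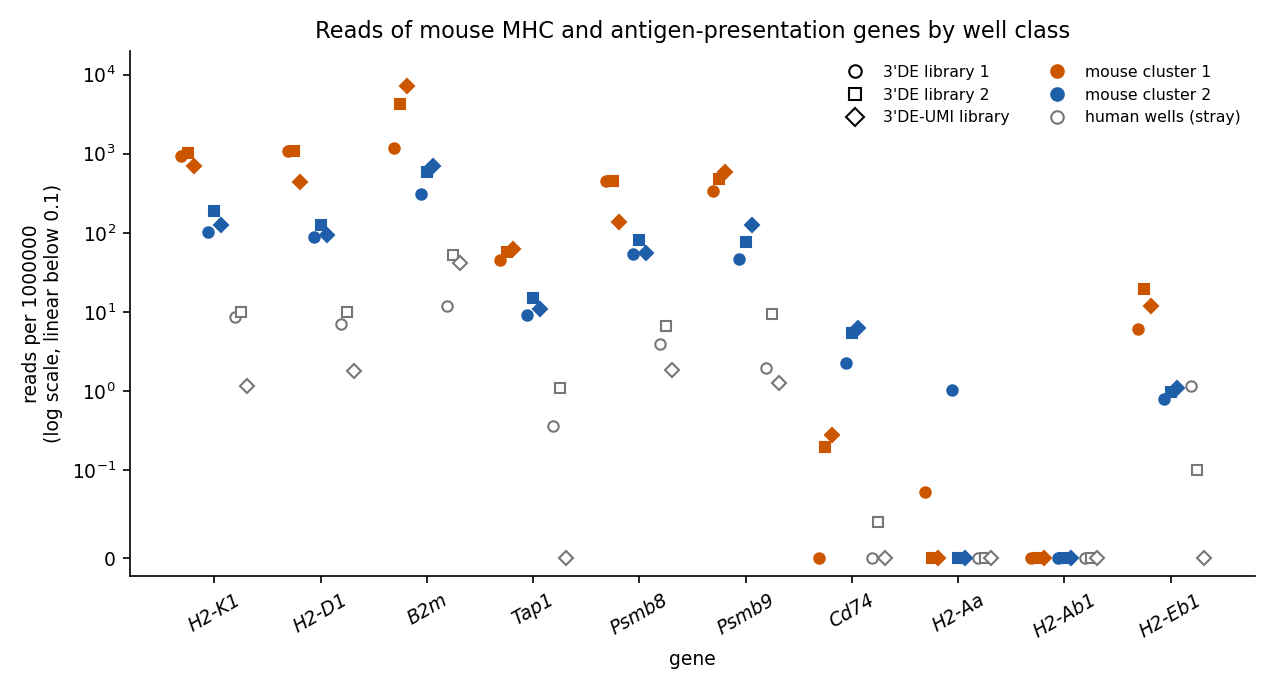
Reads per 1000000 mouse reads (log scale, linear below 0.1) of the 10 genes in wells of mouse cluster 1, mouse cluster 2 and, per 1000000 of all reads, human wells, with 1 point per library. The class I genes lie highest in cluster 1, lower in cluster 2 and lowest in human wells in each library, whereas no class II gene exceeds 19.5 CPM.

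Of the heavy chains, H2-K1 measured 948, 1013 and 692 CPM in cluster 1 and 103, 191 and 127 CPM in cluster 2. The lowest library of cluster 1 lay above the highest of cluster 2. The ratio of the clusters was 9.23, 5.29 and 5.44, and the fitted log2 difference was 2.91 (SE 0.21, edgeR adjusted p = 1.03e-05). H2-D1 measured 1091, 1085 and 442 CPM in cluster 1 and 87.5, 127 and 92.7 CPM in cluster 2, again without overlap. Its ratio was 12.5, 8.57 and 4.76, and its fitted difference was 3.23 (SE 0.26, adjusted p = 2.03e-05), the highest among the class I genes, although it exceeded that of H2-K1 by less than the spread of the ratios between libraries. H2-K1 and H2-D1 are close paralogs among several class I genes of like sequence, so how the reads were divided between such genes is uncertain. Reads of both mouse lines were aligned to the same mm10 reference. Whether reads of the heavy chains and of the class II chains aligned equally well from both lines was not tested.

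B2m, the light chain shared by class I molecules and encoded outside the MHC, measured 1193, 4203 and 7263 CPM in cluster 1 and 308, 589 and 695 CPM in cluster 2. The clusters did not overlap, but the level of cluster 1 differed between the libraries more than that of any other class I gene. The ratio of the clusters was 3.87, 7.14 and 10.5, and the fitted difference was 2.96 (SE 0.30, adjusted p = 6.95e-05).

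Tap1, a subunit of the peptide transporter, had the lowest counts of the class I genes, with 604, 2286 and 1138 reads in cluster 1 (45.5, 56.8 and 62.9 CPM) and 79, 232 and 110 reads in cluster 2 (9.03, 15.04 and 10.8 CPM). Its ratio was 5.03, 3.78 and 5.82, with a fitted difference of 2.49 (SE 0.27, adjusted p = 1.18e-04). In cluster 2 the reads came from few wells, and 5 wells held 49.4%, 57.3% and 82.7% of them.

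The immunoproteasome subunits, which replace constitutive catalytic subunits and change the peptides that are cut, were also higher in cluster 1. Psmb8 measured 454, 452 and 138 CPM in cluster 1 and 54.1, 80.3 and 54.9 CPM in cluster 2. The ratio of the clusters was 8.39 and 5.63 in the 3'DE libraries and 2.51 in the 3'DE-UMI library, with a fitted difference of 2.53 (SE 0.30, adjusted p = 1.77e-04). Psmb9 measured 335, 479 and 593 CPM in cluster 1 and 46.3, 77.6 and 125 CPM in cluster 2. Its ratio was 7.24, 6.18 and 4.76 and its fitted difference 2.81 (SE 0.19, adjusted p = 9.07e-06). The per-library log2 differences of the 6 class I genes had an SD of 0.31 to 0.89 over the 3 libraries, so that their order by size was not resolved. The fitted differences, scaled by TMM, lay a median of 0.23 above the means of the per-library CPM differences of these genes.

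**Figure D2:**
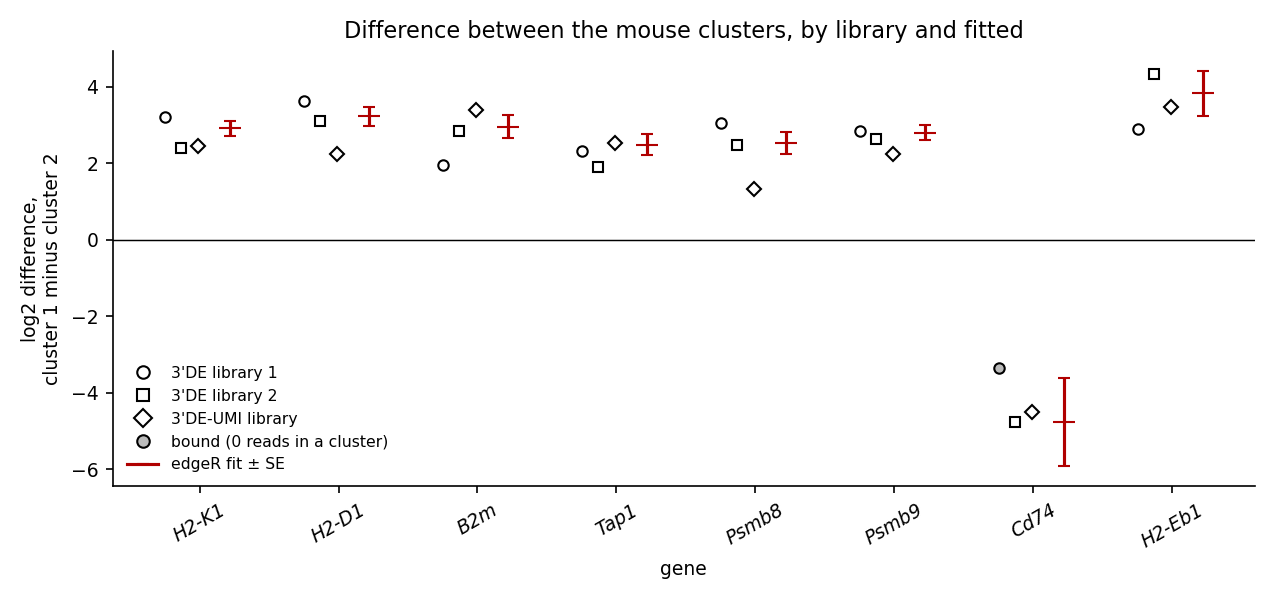
Log2 difference between the mouse clusters (cluster 1 minus cluster 2) for the 8 tested genes, with 1 point per library and the edgeR fit ± SE. The 6 class I genes and H2-Eb1 lie above 0 and Cd74 below 0 in each library, and the value of Cd74 in 3'DE library 1, with 0 reads in cluster 1, is a bound.

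Among the class II genes, Cd74 had 0, 8 and 5 reads in cluster 1 and 20, 83 and 64 reads in cluster 2, or 2.29, 5.38 and 6.28 CPM in the latter. It was detected in 11 of 449 wells (2.45%, 1.23 to 4.34), 32 of 275 (11.6%, 8.10 to 16.0) and 20 of 230 (8.70%, 5.39 to 13.1) of cluster 2. In cluster 1 it was found in 0 of 473 wells, which allows a share of up to 0.634%, and in 8 of 498 and 1 of 470 wells. Against a floor of 3 reads in the sum of cluster 1, Cd74 was at least 10.1-fold higher in cluster 2 in 3'DE library 1, and the ratio was 27.0 and 22.8 in the other libraries. The fitted log2 difference was -4.77 (SE 1.15, edgeR adjusted p = 0.00972), a value that depends on the prior count. Cd74 passed the filter on low counts only through cluster 2, where it was higher, so the call is not read as support. The call was lost without 3'DE library 1 (-4.33, adjusted p = 0.055) and without 3'DE library 2 (-5.00, adjusted p = 0.063), within a range of 7.20e-05 to 0.063 over the 14 alternatives.

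H2-Eb1, the β chain of I-E, moved the other way. It had 80, 785 and 218 reads in cluster 1 (6.02, 19.5 and 12.04 CPM) and 7, 15 and 11 reads in cluster 2 (0.80, 0.97 and 1.08 CPM). The reads of cluster 1 came from 27 wells (5.71%, 3.80 to 8.20), 54 wells (10.8%, 8.25 to 13.9) and 14 wells (2.98%, 1.64 to 4.95), and 5 wells held 40.0%, 38.7% and 74.8% of them. Cluster 2 had a read in 5, 6 and 1 wells. The ratio of the clusters was 7.52, 20.1 and 11.2, and the fitted difference was 3.84 (SE 0.59, adjusted p = 8.86e-04). With wells thinned to 5000 reads the fitted difference was 5.29 (SE 1.04, adjusted p = 0.00205). Cluster 2 then had H2-Eb1 in 0%, 0.427% and 0% of wells, with at most 1 read in a well. The gene thus passed the filter on low counts only through cluster 1, where it was higher, and this value depends on the prior count. The ratio of 7.52 in 3'DE library 1 rests on a level in cluster 2 that was not above the level in human wells, given below.

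Aligned reads of the I-A chains were nearly absent. H2-Aa had 1 read in cluster 1 and 9 reads in 4 wells of cluster 2 in 3'DE library 1 and none in the other libraries. H2-Ab1 had no read in any mouse well, and 0 of 449, 275 and 230 wells of cluster 2 allow shares of up to 0.668%, 1.09% and 1.30%. Neither gene passed the filter on low counts, so neither was tested.

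Reads of both Cd74 and H2-Eb1 were found in 1 well in all, in cluster 1 of 3'DE library 2. Wells with H2-Eb1 in cluster 1 were deeper than wells without it in 3'DE library 2, with medians of 112065.5 against 32750 reads, and less so in 3'DE library 1 (32525 against 28379) and the 3'DE-UMI library (41457.5 against 29427). Wells of cluster 2 with Cd74 had medians of 24281, 55994 and 34609.5 reads against 20118, 19252 and 33590.5 in wells without it. At 5000 reads a well, the share with a read was lower for both genes. H2-Eb1 was then found in 2.84%, 3.56% and 1.75% of wells of cluster 1, and Cd74 in 0.935%, 2.99% and 4.46% of wells of cluster 2.

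With each well thinned to 5000 reads, the share of wells with a read was compared at equal numbers of reads, not of molecules. This removed 15, 20 and 14 wells of cluster 1 and 21, 41 and 6 of cluster 2. Before thinning, wells had medians of 2976, 2608.5 and 1254.5 detected mouse genes in cluster 1 and 2667, 2298 and 1637.5 in cluster 2. Fewer genes in general were thus detected per well of the 3'DE-UMI library, and its lower shares are not read as particular to these genes. H2-K1 was then detected in 94.5%, 90.4% and 56.4% of wells in cluster 1 and 31.3%, 41.9% and 27.2% in cluster 2, and before thinning in 99.6%, 96.0% and 65.3% against 53.7%, 67.3% and 43.5%. H2-D1 was detected in 95.4%, 95.2% and 57.7% of thinned wells of cluster 1 and 28.0%, 37.6% and 17.9% of cluster 2. B2m was found in 98.3%, 100% and 99.6% of cluster 1 and in 66.8%, 81.6% and 64.7% of cluster 2. The class I genes were thus detected in both clusters, in more wells of cluster 1 in each library.

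Psmb8 was detected in 84.3%, 73.4% and 25.4% of thinned wells of cluster 1 and 19.4%, 26.5% and 9.82% of cluster 2. Psmb9 was detected in 73.1%, 70.1% and 57.5% against 17.5%, 18.8% and 17.9%. Tap1 was detected in 15.7%, 17.6% and 10.3% against 2.57%, 4.27% and 1.79%. The intervals, which cover counting error among wells only, did not overlap between the clusters for any of the 6 genes in any library. Of the 6 genes, a thinned well held a median of 5, 5 and 3 in cluster 1 and 2, 2 and 1 in cluster 2. All 6 were seen in 37, 33 and 9 wells of cluster 1 and in no well of cluster 2, where 54, 13 and 47 wells held none.

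**Figure D3:**
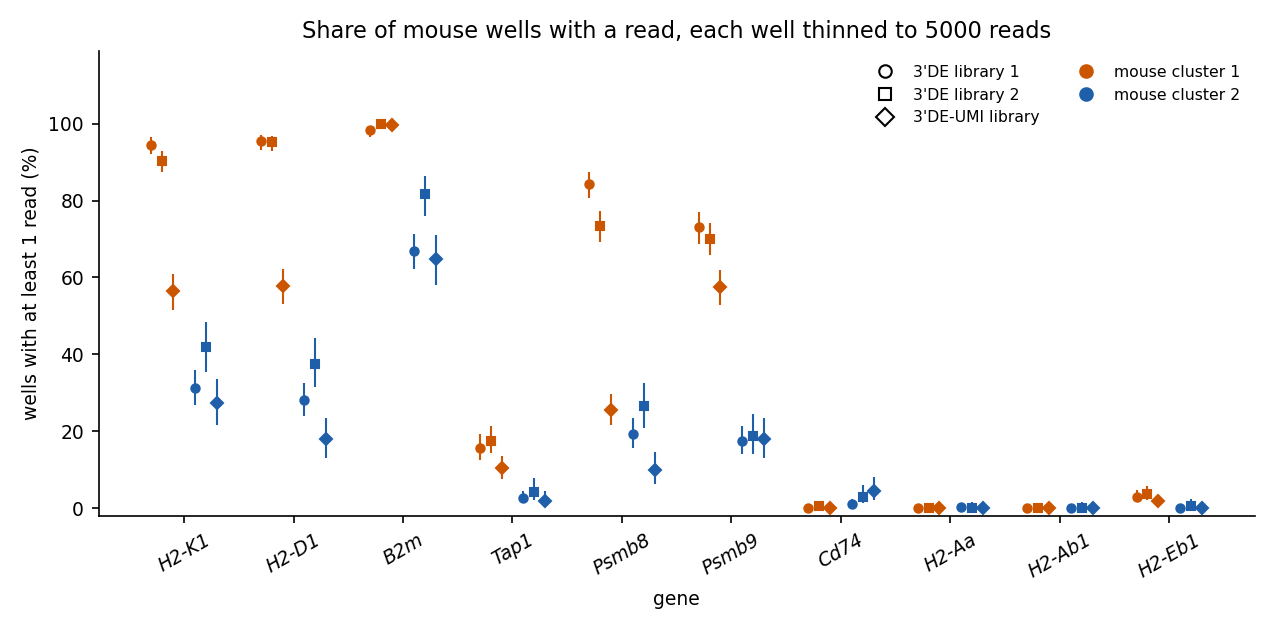
Share of wells (%) of each mouse cluster with at least 1 read of each gene after thinning every well to 5000 reads, with exact 95% binomial intervals and 1 point per library. In cluster 1, H2-K1, H2-D1 and Psmb8 lie at 73.4% or more in the 3'DE libraries and between 25.4% and 57.7% in the 3'DE-UMI library, whereas B2m lies at 98.3% or more in each. Wells of cluster 1 had a median of 1254.5 detected mouse genes in the 3'DE-UMI library against 2976 and 2608.5 in the 3'DE libraries, before thinning.

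Reads of mouse genes in human wells measured the stray background. H2-K1 had 8.71, 9.88 and 1.15 reads per 1000000 of all reads there, H2-D1 had 7.09, 9.998 and 1.80, and B2m had 11.8, 51.8 and 42.1. Mouse cluster 2 on the same scale lay above human wells by 11.7-, 19.1- and 110-fold for H2-K1, by 12.3-, 12.5- and 51.4-fold for H2-D1 and by 26.1-, 11.2- and 16.4-fold for B2m. For Psmb9 the lowest of these ratios was 8.06, in 3'DE library 2. The levels of class I genes in cluster 2 were therefore above the stray level in human wells of the same library. The stray level itself depended on the limit for mixed wells, and for the 6 class I genes together it was 33.8 reads per 1000000 of all reads in 3'DE library 1 at the limit of 10% and 8.83 at 5%.

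Shares of wells were less clear, because a single stray read counts as detection. In 3'DE library 2, 79.1% of human wells (75.2 to 82.7, median depth 34368 reads) had a read of B2m, against 90.9% (86.9 to 94.0, median depth 21469) of cluster 2, whereas in 3'DE library 1 the share in human wells was 10.7% (median depth 21426) and in the 3'DE-UMI library 19.2% (median depth 16457). H2-K1 was found in 4.50%, 37.8% and 2.15% of human wells. Cd74 had 0, 2 and 0 reads in human wells, so that its reads in cluster 2 lay above this background in each library. H2-Eb1 had 13 reads in 2 human wells of 3'DE library 1, or 1.17 reads per 1000000 of all reads, beside 7 reads in 5 wells of cluster 2, or 0.80. Its level in cluster 2 of that library was therefore not above that in human wells, on few reads and with no test of the difference. Its level in cluster 1 was 5.14 times that of human wells in 3'DE library 1 and 189 times in 3'DE library 2, and in human wells of the 3'DE-UMI library it had no read.

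The second question was whether the protocols gave the same levels. In cluster 1, 12.8% of 11789 genes were called between the protocols (4.83% higher and 8.00% lower in the 3'DE-UMI library), and 3 of the 7 tested genes were among them. Psmb8 was lower in the 3'DE-UMI library by a fitted log2 difference of -1.85 (SE 0.35, edgeR adjusted p = 0.00226), at 138 CPM against 454 and 452. H2-D1 was lower by -1.44 (SE 0.33, adjusted p = 0.00749), at 442 CPM against 1091 and 1085. The ratio of 3'DE library 2 to 3'DE library 1 was 0.996 for Psmb8 and 0.995 for H2-D1, so both differences were larger than the spread between those libraries.

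The level of B2m was higher with the 3'DE-UMI protocol by 1.32 (SE 0.42, adjusted p = 0.0441), but here the 3'DE libraries differed among themselves. Library 2 exceeded library 1 by 3.52-fold, and the 3'DE-UMI library exceeded library 2, from the same cell mixture, by 1.73-fold and library 1 by 6.09-fold. The call for B2m was lost under 4 of the 7 alternatives with a test (adjusted p from 3.48e-05 to 0.25). H2-K1 (-0.64, SE 0.31, adjusted p = 0.19), Psmb9 (0.42, SE 0.32, adjusted p = 0.42) and Tap1 (0.17, SE 0.38, adjusted p = 0.81) did not pass the test, and neither did H2-Eb1 (-0.21, SE 0.60, adjusted p = 0.86).

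**Figure D4:**
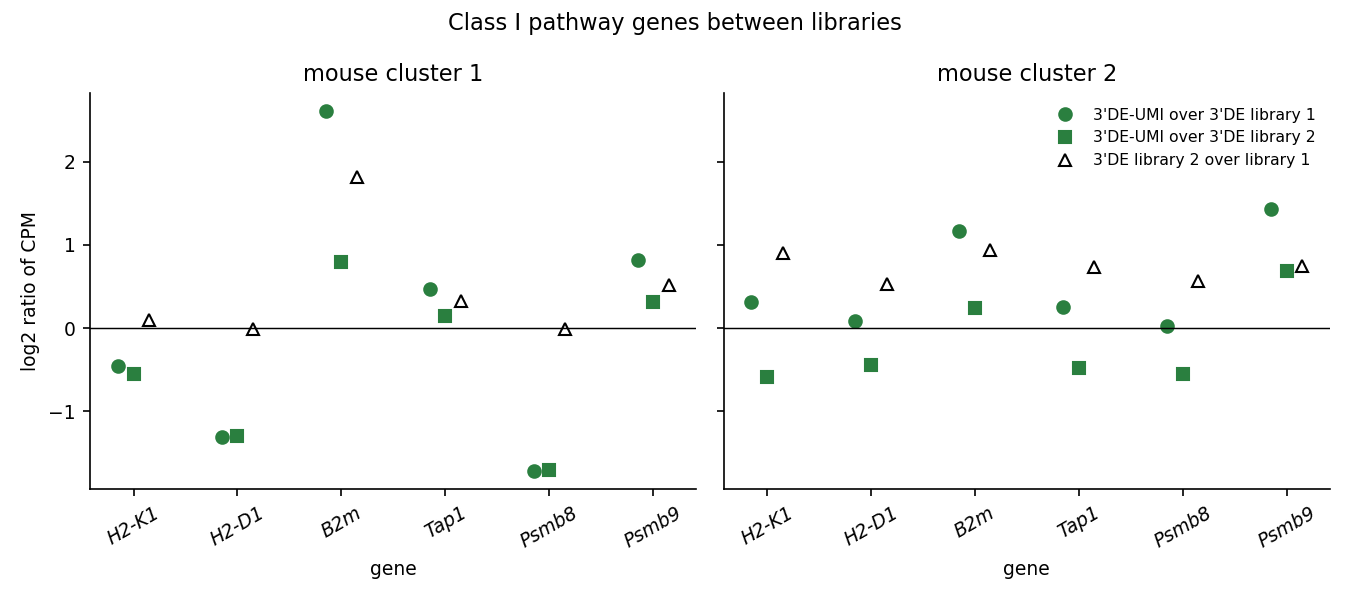
Log2 ratio of CPM between libraries for the 6 class I genes in mouse cluster 1 (left) and mouse cluster 2 (right), with the 3'DE-UMI library over each 3'DE library and 3'DE library 2 over library 1. In cluster 1 the 3'DE-UMI library lies at -1.31 and -1.30 for H2-D1 and at -1.72 and -1.71 for Psmb8, while the 3'DE libraries are 1.82 apart for B2m.

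In cluster 2, 2.41% of 11627 genes were called between the protocols (0.774% higher and 1.63% lower), and none of the 8 tested genes was among them. The fitted differences ran from -0.49 for Psmb8 (SE 0.48, adjusted p = 0.66) to 0.82 for Psmb9 (SE 0.46, adjusted p = 0.38). Here the 3'DE-UMI level fell between those of the 3'DE libraries for H2-K1, H2-D1, Tap1 and Psmb8, and above both for B2m and Psmb9. In the edgeR fit 0 of the 8 genes passed an unadjusted p of 0.05 as well, and DESeq2 called 0 of the 7 for which it gave an adjusted p. With 1 library of the 3'DE-UMI protocol, these tests, and that of the interaction below, had 1 residual degree of freedom among sums. A p above the threshold does not show that the levels were alike.

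The interaction asked whether the difference between the clusters itself depended on the protocol, and 2.18% of 13242 genes were called (0.891% shifted up and 1.29% down). Psmb8 was the only one of the 8 tested genes called, with a shift of -1.35 in the 3'DE-UMI library (SE 0.38, edgeR adjusted p = 0.0271), from ratios of 8.39 and 5.63 to 2.51. B2m shifted by 1.09 (SE 0.36, adjusted p = 0.0757) and H2-D1 by -1.02 (SE 0.37, adjusted p = 0.12), neither past the threshold. The call of Psmb8 was lost with DESeq2 (-1.33, adjusted p = 0.11), with UMI counts (-1.19, adjusted p = 0.88) and with wells thinned to 5000 reads (-1.02, adjusted p = 0.23), with the shift in the same direction each time.

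The balance of reads within pairs of genes of one complex or family was compared between the libraries as a description. Psmb8 made up 57.5% and 48.5% of the reads of Psmb8 and Psmb9 in cluster 1 of the 3'DE libraries and 18.8% in the 3'DE-UMI library. In cluster 2 it made up 53.9%, 50.9% and 30.5%. H2-K1 made up 46.5% and 48.3% of the reads of the heavy chain pair in cluster 1 of the 3'DE libraries and 61.1% in the 3'DE-UMI library, and 54.0%, 60.2% and 57.9% in cluster 2, where the 3'DE-UMI value fell between the others. These are shares of reads, not of molecules. With 1 library of the 3'DE-UMI protocol, no test was run on them, and protocol and library cannot be told apart.

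UMIs of the 3'DE-UMI library count molecules rather than reads. The 3'DE libraries had no UMI counts, so the alternative with UMI counts kept their reads and compared UMIs with reads between protocols. In cluster 1 there were 9048 UMIs of B2m, or 19.3 a well, 769 of H2-K1, 762 of H2-D1, 681 of Psmb9, 230 of Psmb8 and 75 of Tap1. Cluster 2 held 593, 136, 115, 89, 51 and 11 of the same genes. The log2 differences of the clusters in each gene's share of all UMIs were 3.19 for B2m, 1.75 for H2-K1, 1.98 for H2-D1, 2.19 for Psmb9, 1.43 for Psmb8 and 2.02 for Tap1, each above 0 as for reads. A UMI of H2-D1 in cluster 1 was read 10.5 times and one of Psmb8 10.8 times, against 16.3 times for H2-K1, 15.8 for Psmb9 and a median of 13.8 over 3697 genes with at least 50 UMIs. In cluster 2 the values were 8.21 for H2-D1, 10.96 for Psmb8, 9.54 for H2-K1 and 14.3 for Psmb9, beside a median of 12.9. There H2-K1 was thus below the median. By UMIs, H2-K1 made up 50.2% of the heavy chain pair in cluster 1 (47.7 to 52.8) and Psmb8 25.2% of the immunoproteasome pair (22.5 to 28.2). The shares of reads in the same wells were 61.1% and 18.8%. For both pairs the share by UMIs was nearer to the shares of reads in the 3'DE libraries. Psmb8 still lay below its 57.5% and 48.5% there.

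Of the class II genes, the UMI table held 15 UMIs of Cd74 in cluster 2 and 1 in cluster 1, and 20 UMIs of H2-Eb1 in cluster 1 and 1 in cluster 2. The 20 UMIs of H2-Eb1 lay in 14 wells, with at most 3 in a well. H2-Aa and H2-Ab1 were not listed. In human wells the table held 100 UMIs of B2m in 87 of 557 wells, 3 to 8 UMIs of each of H2-K1, H2-D1, Psmb8 and Psmb9 and none of the other members.

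Wells of one cluster differed in their class I reads. In 3'DE library 1, thinned wells of cluster 1 held a median of 4 reads of H2-K1 (quartiles 2 and 6, highest 83), 5 of H2-D1 (3 and 7.75, highest 44) and 6 of B2m (4 and 8, highest 17). In the 3'DE-UMI library B2m had a median of 34 (21 and 47, highest 129), whereas H2-K1 had a median of 1 (0 and 6, highest 50). The variance over the mean of H2-K1 in cluster 1 was 5.46, 5.02 and 9.29, above that of 98.2%, 92.9% and 92.0% of the genes with a like mean. In 3'DE library 1 the well with 83 reads carried much of it, and without that well the value was 2.96, above 94.7% of such genes. By UMIs the value in cluster 1 was 1.24, above 93.2% of such genes. H2-D1 in cluster 1, at a like level, was above 94.9%, 63.9% and 13.9%. Of the heavy chains, only H2-K1 was thus among the more variable genes of cluster 1 in each library. In cluster 2 this did not hold, and H2-K1 by reads was above 93.3%, 26.8% and 8.83% of such genes. These ranks are descriptions, and a gene of like mean was one within 1.5 times.

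**Figure D5:**
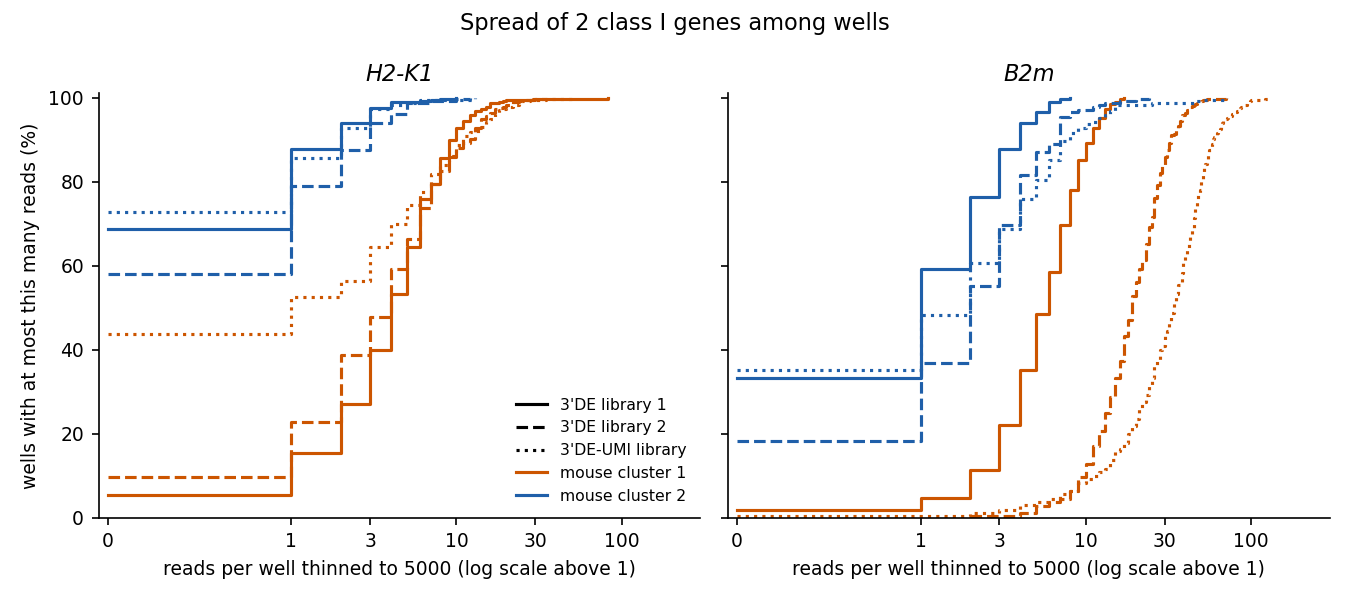
Cumulative share of wells (%) by number of reads of H2-K1 (left) and B2m (right) in wells thinned to 5000 reads (log scale above 1), for both mouse clusters and each library. The curves of cluster 1 lie to the right of those of cluster 2 in each library, the B2m curves of cluster 1 move from a median of 6 to 19 and 34 reads, and the H2-K1 curve of the 3'DE-UMI library starts at 43.6% of wells with no read.

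The clusters overlapped little for B2m. The median of cluster 1 was reached by 15 of 428, 2 of 234 and 3 of 224 thinned wells of cluster 2. For H2-K1 10, 14 and 61 wells of cluster 2 did so, the last against a median of 1 read. B2m in cluster 2 of the 3'DE-UMI library had a variance over the mean of 15.02, above that of 100% of the genes with a like mean. By UMIs it was 1.38, above 99.5% of such genes. By reads, 4 of 224 wells reached the lower quartile of cluster 1, and none of them held the leading genes of both clusters. Without these 4 wells the value was 4.27. They were picked by their own B2m reads, so a fall was built in, and the other genes kept their highest wells. The value of 4.27 is therefore not ranked among them.

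Across wells of one cluster the class I genes were only weakly correlated after thinning. The 15 pairs had a median Pearson r of 0.02 to 0.05 in each library and cluster by reads, and the highest was 0.27, between H2-K1 and H2-D1 in cluster 1 of 3'DE library 1. The wells share a library and depth, and in counts this sparse these values are no finding.

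Over the 6 sums of library and cluster, H2-D1 was the second nearest of 2991 genes to H2-K1 in centred log2(CPM + 1), by Euclidean distance (0.80). Psmb8 was at place 15, Psmb9 at 29 and B2m at 221. The nearest gene was ENSMUSG00000078566 (0.63), for which no symbol was paired. For B2m the nearest was ENSMUSG00000036427 (0.84), Psmb9 was at place 11 and H2-K1 at 78. For Cd74 the nearest were ENSMUSG00000040029 (0.44) and ENSMUSG00000019132 (0.47), both also higher in cluster 2. Cd74 lay at 0 to 6.28 CPM, where adding 1 shrinks its difference between the clusters, while the genes compared averaged at least 50 CPM. Its distances therefore do not show a difference of like size. The points share libraries, and the distances are a description over 6 sums.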

How the data were processed

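The authors had aligned the ICELL8 reads to a combined hg19 and mm10 reference (named after Cell Ranger 1.2.0) and deposited raw read counts per gene and well for each library, made with mappa and STAR 2.7.0b per the study's methods, beside UMI counts for the library of the 3'DE-UMI protocol, made with the Drop-seq tools and STAR 2.4.2a. The versions are also in the submitters' processing notes. The methods say that reads were downsampled, and whether the deposited tables came from downsampled reads is not given. The tables held 35581264, 109702878 and 44883618 reads and 3833017 UMIs. Intervals and limits at a count of 0 (3 counts) cover counting error only.

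Mouse wells were clustered with scanpy 1.11.5 without the 10 genes (scaling to 10000 counts, 1000 variable genes, 20 components, 15 neighbours, Leiden resolution 0.1). Clusterings on either of 2 disjoint sets of genes gave the same cluster for 99.8% and 99.7% of wells. No doublet caller was run, and wells holding both species or both clusters' genes were counted instead. Reads were summed per library and cluster. edgeR 4.0.16 (filterByExpr, TMM, quasi-likelihood F-test, two-sided, Benjamini-Hochberg over all genes, threshold 0.05) was fitted to 6 sums with the library as a block for clusters, and to 3 sums for protocols. The fit for clusters left 2 residual degrees of freedom. The fits for protocols and for the interaction, the latter on the same 6 sums, left 1 each. In these, the single 3'DE-UMI library took its spread from the other protocol. An SE is the log2 difference over the root of F. The method was tested on simulated data.

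All 10 genes were named, and for H2-K1, B2m and Cd74 the nearest genes of at least 50 CPM were sought, of which at most 2 per direction are printed because the identifiers have no symbols. The planned marker, antigen presentation and interferon lists, and the plan to name clusters after lines, need mouse gene symbols and were not used here. Mouse sequences were not used either. The genes and lists were chosen with earlier results of these data known, and the rows of the genes were then found by identifier alone. The alternatives tried were other normalization, DESeq2 1.42.0, no filter, no block, UMI counts, deeper wells, a stricter limit for mixed wells, thinning, other assignments and leaving out libraries. With UMI counts, only the 3'DE-UMI library was counted in UMIs, and the 3'DE libraries stayed as reads.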

Additional observations from a re-analysis of the deposited data

Results flagged for a closer look

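The difference of Psmb8 between mouse clusters 1 and 2 passed a test of the interaction with the protocol, in which the 3'DE-UMI arm was 1 library, so that protocol and library cannot be told apart. Its log2 difference was lower in the 3'DE-UMI library than in the 3'DE libraries by -1.35 (SE 0.38, edgeR quasi-likelihood adjusted p = 0.0271), and the direction was the same, cluster 1 above cluster 2, in 3 of 3 libraries. The ratios were 8.39 and 5.63 in the 3'DE libraries and 2.51 in the 3'DE-UMI library. Over the 7 alternatives with a test the adjusted p ranged from 0.0249 to 0.88, and the call was lost under 3 of them, DESeq2 (-1.33, adjusted p = 0.11), UMI counts (-1.19, adjusted p = 0.88) and wells thinned to 5000 reads (-1.02, adjusted p = 0.23). With UMI counts, the 3'DE libraries were still counted in reads. The fit of the interaction left 1 residual degree of freedom among sums. No group held the 4 libraries that a test for a library far from the others needs.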

How the results depend on the processing

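The difference between the clusters kept its direction and its side of the threshold for the 6 class I genes and H2-Eb1 under all 14 alternatives (98 of 98 results), with class I values from 2.19 to 3.58. Of these, the result of H2-Eb1 with thinned wells rested on reads of cluster 1 and the prior count, so it adds nothing to that number. Cd74, which could be tested only through cluster 2, kept both except when 3'DE library 1 or 3'DE library 2 was left out. The number of genes called between clusters, 4729, was 2983 with no library block and 2945 to 5089 when a library was left out (3094 without 3'DE library 1 and 2945 without 3'DE library 2). Leaving out a library gave log2 differences of 2.701 to 3.03 for H2-K1, 2.96 to 3.58 for H2-D1, 2.61 to 3.39 for B2m, 2.33 to 2.65 for Tap1, 2.19 to 2.99 for Psmb8, 2.72 to 2.95 for Psmb9, -5.03 to -4.33 for Cd74 and 3.41 to 4.18 for H2-Eb1, which was 5.29 with thinned wells. The fit without 3'DE library 1 is that within the shared cell mixture. The cause of these changes was not tested, beyond the smaller number of sums.

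Between protocols in cluster 1, 1512 genes were called, and 921 with UMI counts. The call was lost for H2-D1 with UMI counts (-1.23, adjusted p = 0.066). For B2m it was lost with DESeq2 size factors (1.32, 0.12), DESeq2 (1.32, 0.063), UMI counts (1.08, 0.25) and a mixed-species limit of 5% (1.32, 0.11). For Psmb8 in the interaction it was lost with DESeq2 (-1.33), UMI counts (-1.19) and thinned wells (-1.02). The interaction called 289 genes, and 51, 7 and 117 under those settings. In cluster 2 the split of 90 higher and 190 lower genes became 227 and 85 with UMI counts and 34 and 265 with DESeq2. Without either 3'DE library no degree of freedom was left, and the values alone were -1.52 to -1.37 for H2-D1, 0.72 to 2.39 for B2m and -1.94 to -1.79 for Psmb8 in cluster 1, and -1.57 to -1.13 for Psmb8 in the interaction. No gene of the 10 gained a call.

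The median share of wells over the 6 class I genes was higher in cluster 1 than the same median in cluster 2 by 49.7, 31.8 and 33.5 points. This difference of medians was 65.7 and 49.9 points in the 3'DE libraries after thinning to 5000 reads, 43.5 in library 2 after thinning to 2000, and 65.9 and 44.0 with at least 2 reads. The class I level in human wells was 33.8 and 89.0 reads per 1000000 of all reads in the 3'DE libraries, and 8.83 and 46.3 with a mixed-species limit of 5%.

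Assignment of wells by markers was not run, since the markers could not be matched. No paired analysis was possible because the 3'DE-UMI protocol has a single library, which leaves fewer than 2 pairs. Its replicate number is that of 3'DE library 1, while its cell mixture is that of library 2, and values within that mixture are those without library 1. Counts of a few reads limit the class II genes, and reads are not independent molecules. The alternatives that left out wells with both clusters' genes or the highest wells, or used equal numbers of wells, were chosen after seeing the data.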
